A study of Mus musculus with 2 samples.

Results

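Kupffer cells are the resident macrophages of the liver, and here they were chosen among single nuclei by their open chromatin at 8 marker genes. Each nucleus was profiled by ATAC-seq, in which a transposase inserts adapters into accessible DNA, so that every recovered fragment marks an open stretch. A cell was kept when it had at least 3 fragments in the windows of Clec4f, Vsig4, Timd4, Cd5l, C1qa, Cd163, Adgre1 and Marco, and when this number was at least 2 times the larger of its numbers in 8 endothelial and 8 stellate marker windows. A window is the gene body with 2 kb on each side. The rule kept 487 of the 1175 cells with at least 1000 fragments in peaks, and the authors had called 1212 cells in all. Library 1 held 308 of these Kupffer cells among 610 cells (50.5%, 95% interval 46.4 to 54.5) and library 2 held 179 among 565 (31.7%, 27.9 to 35.7). Every interval in the text is a 95% interval of counting error alone, exact Clopper-Pearson for shares.

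The study compared untreated male mice aged 8 to 10 weeks, 1 library from the Spta wt/wt genotype and 1 from Spta sph/sph, a mutant with fragile red cells. Livers were digested with collagenase, hepatocytes were spun out, and macrophages were pulled down with beads for F4/80, the product of Adgre1, so both groups were enriched by the protein of 1 of the 8 marker genes. The design names 1 mutant mouse and its wild-type littermate, so a library is 1 animal and no replicate exists. Barcodes end in 1 or 2, and no source used here says which ending belongs to which genotype, so the comparison is between library 1 and library 2 and no genotype is named for either.

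Kupffer cells line the liver sinusoids, where they engulf aged red cells, bacteria and debris and recycle iron from heme. They arise in the embryo, renew themselves under the receptor for CSF1, and carry an identity set by lineage factors such as PU.1 and LXR alpha. In the sinusoid they sit on endothelial cells and beside stellate cells, and the rule sets them against these types.

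The 2 libraries held 11401694 and 21656110 fragments and shared 0 cell barcodes. Kupffer cells had a median of 16845 fragments each in library 1 and 16293 in library 2, and 5615816 and 3760911 fragments in all. Their quality differed between the libraries. A median of 74.0% of a Kupffer cell's fragments lay in peaks in library 1 against 59.0% in library 2. Pile-ups, which are stretches of 20 kb where 1 cell has at least 10 fragments and 10 times the number expected from the rest of its class, took a median of 0% of a Kupffer cell's fragments in library 1 and 7.06% in library 2. The part of these differences in the results between libraries was not tested, except that values with pile-ups masked are given below. Endothelial cells, chosen by the mirror image of the rule, numbered 121 and 144, stellate cells 60 and 27, and cells in no class 121 and 215.

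Marker fragments chose the Kupffer cells, so their numbers here are a description. Cells with 3 to 5 Kupffer-marker fragments numbered 50 of the 308 in library 1 and 63 of the 179 in library 2. The median Kupffer cell had 11 Kupffer-marker fragments in library 1 and 8 in library 2, beside 1 endothelial fragment and 0 stellate fragments in each. At the median depth, fragments spread evenly over the genome would put 1.99 and 1.92 fragments into the 8 windows, which span 321 kb. Cells with exactly 3 marker fragments, just inside the rule, numbered 17 and 22. Cells with 2 marker fragments that met the ratio, just outside it, numbered 15 and 29, with median depths of 5668 and 9757 fragments. At the other edge, 5 and 7 kept cells lay at exactly 2 times the larger rival number, and 7 and 16 cells with at least 3 marker fragments lay between 1.5 and 2 times and were left out. A total of 30 cells in library 1 and 96 in library 2 had at least 3 Kupffer fragments and failed the ratio. Those left-out cells were deep, with median totals of 26076 and 33799 fragments. No doublet caller was run, so cells with fragments of several types were removed only by this ratio.

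**Figure D1:**
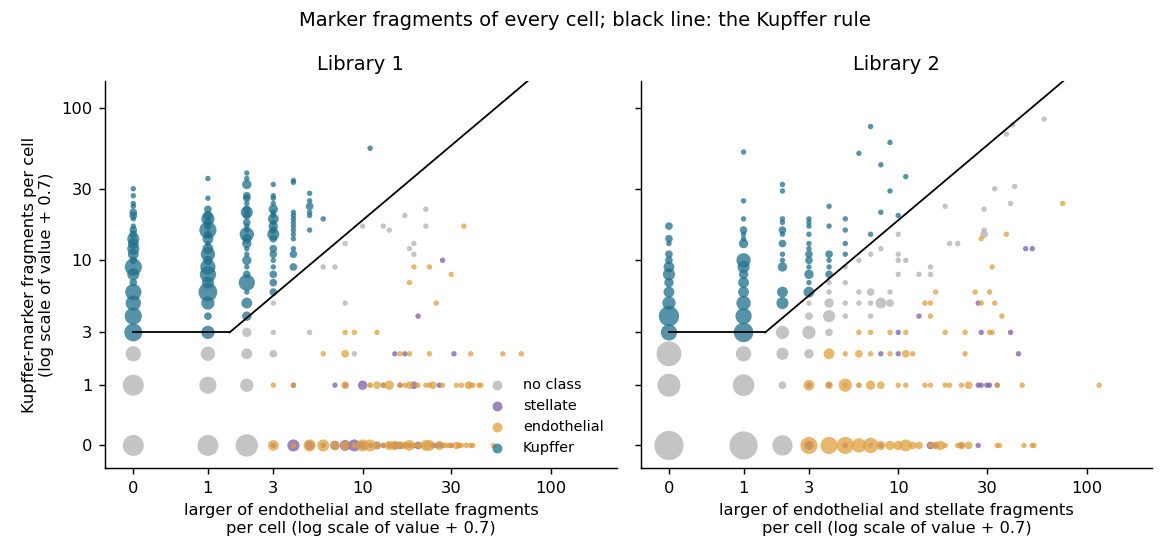
Marker fragments per cell, with Kupffer fragments on the vertical axis and the larger of endothelial and stellate fragments on the horizontal axis, both on a log scale of value + 0.7. Each point is a pair of values and its area grows with the number of cells. The 308 Kupffer cells of library 1 and the 179 of library 2 lie on or above the black line, and 30 and 96 cells with at least 3 Kupffer fragments lie beneath it.

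Most Kupffer cells were marked by several genes. The median cell had fragments at 5 of the 8 markers in library 1 and at 4 in library 2. After each cell was thinned to 5000 fragments, which left out 12 and 7 shallower cells, the medians were 3 and 2. At least 5 markers were seen in 210 cells (68.2%) of library 1 and in 63 (35.2%) of library 2. Only 1 marker was seen in 1 cell and in 4 cells. All 8 markers were seen in 21 cells and in 6.

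The 8 markers chose the cells, so their levels are a description. Clec4f, a galactose-binding lectin used as the standard mouse Kupffer marker, had 89.2 fragments per 1000000 fragments of the class (CPM) in library 1 and 52.7 in library 2. Cd5l, a secreted protein that supports macrophage survival, had 96.3 and 61.7 CPM, and Timd4, a receptor for phosphatidylserine on dying cells, had 112 and 60.9. Vsig4, a complement receptor, had 78.9 and 39.3 CPM. C1qa, a chain of complement C1q, had 82.3 and 43.9, and Cd163, which takes up haptoglobin loaded with hemoglobin, 96.3 and 41.2. Adgre1, the gene of F4/80, stood at 110 and 79.5 CPM. Marco, a scavenger receptor for bacteria and particles, was the exception in direction, with 34.0 CPM in library 1 and 106 in library 2. Thus 7 of the markers were lower in library 2 and 1 was higher. Per kb of window C1qa was the most open marker of library 1, at 11.9 CPM per kb, and the long gene Adgre1 the least, at 0.853.

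The share of cells with a fragment moved the same way. Marco was seen in 35.7% of the Kupffer cells of library 1 and in 62.0% of those of library 2. Thinned to 5000 fragments per cell, these shares were 15.5% and 30.8%. Clec4f went from 68.2% to 39.7%, or from 33.8% to 20.3% when thinned. In endothelial cells Marco was seen in 6.61% and 9.72% of cells and Clec4f in 5.79% and 6.94%, or at most 2.88% when thinned. Those cells were chosen with few Kupffer-marker fragments relative to endothelial ones, so the rule in part sets these low shares. Without Marco the rule kept 150 Kupffer cells in library 2 and 303 in library 1, and without any other single marker it kept 156 to 171 and 290 to 298.

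**Figure D2:**
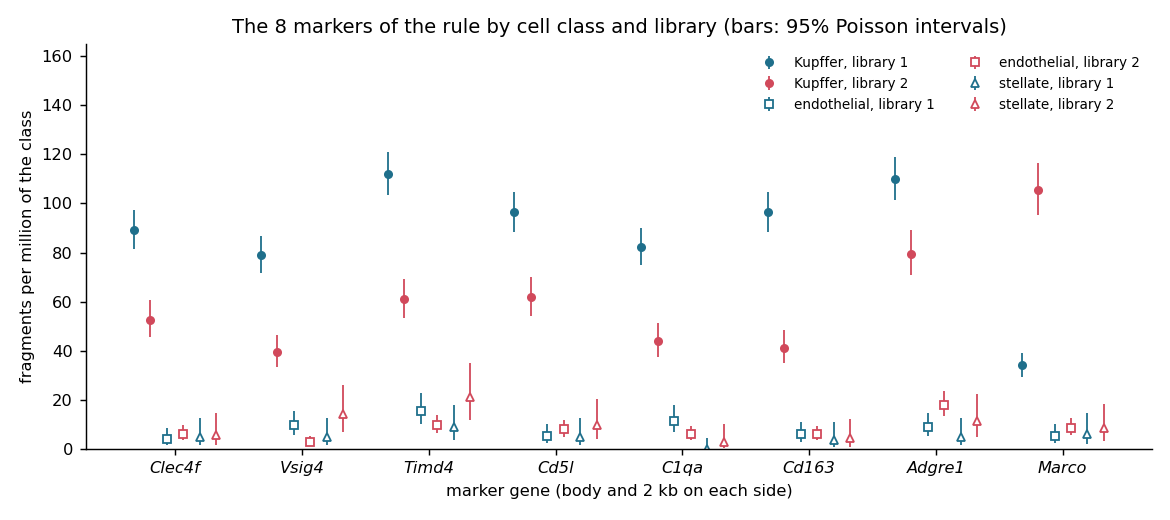
Fragments in CPM of the class at the 8 marker genes of the rule, for Kupffer, endothelial and stellate cells of each library, with 95% Poisson intervals. Kupffer cells stand at 34.0 to 112 CPM in library 1 and at 39.3 to 106 in library 2. The other classes, chosen to hold few of these fragments relative to their own markers, stand at 21.1 CPM or less.

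The label was compared with 20 other genes associated with Kupffer cells that took no part in the rule. These genes were listed with earlier results of these data known, so they are not an independent check. Their summed level in Kupffer cells was 1630 CPM in library 1 and 1083 in library 2, against 421 and 405 in endothelial cells and 587 and 529 in stellate cells. Of these genes 18 had at least 50 fragments in the groups compared and were tested, and a gene was called when its ratio was at least 2-fold from that of the median gene. In library 1, 17 of 18 were called higher in Kupffer than in endothelial cells and 0 lower, where 11.2% of all 15128 tested genes were called higher and 9.72% lower. In library 2, 14 of 18 were called higher and 0 lower, against 5.85% higher and 8.66% lower among all 15121 tested genes. Their median log2 ratio was 2.22 and 1.26. Both values are relative to the median gene, as are all log2 ratios below. With 1 library per group no test across samples was possible, and no p-value is given.

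Kupffer cells at the edge of the rule carried less of this list in library 1. Cells with 3 to 5 marker fragments had 1368 CPM over the 20 genes, against 1672 with 6 to 10 and 1649 with 11 or more. In library 2 the 3 bands held 1053, 1090 and 1090 CPM. The endothelial genes outside the rule stood at 464, 521 and 527 CPM in the same bands of library 1 and at 435, 355 and 379 in library 2, so the weakest members of library 2 held the most of them. Over all Kupffer cells this endothelial list stood at 520 and 382 CPM, against 1416 and 791 in endothelial cells. Some other lists were highest in the lowest band of library 1. Fc receptor and integrin genes stood at 1775, 1654 and 1694 CPM, MHC class II genes at 1121, 942 and 935, and B cell genes at 259, 210 and 213. In library 2 they stood at 1069, 1219 and 1165, at 619, 695 and 562, and at 194, 222 and 286. T and NK cell and hepatocyte genes were not highest in the lowest band of library 1.

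Markers of other cells were present at low levels. The T and NK cell list summed to 86.7 CPM in Kupffer cells of library 1 and 88.8 in library 2, and 0 of its 10 genes were without a fragment in either library. The hepatocyte list summed to 66.8 and 108 CPM, the B cell list to 216 and 246, the erythroid list to 166 and 118, and the dendritic cell list to 319 and 246. The cholangiocyte list held 24.4 and 65.7 CPM. Cldn4 of that list had 0 of 5615816 fragments in library 1, which allows up to 0.534 CPM, and Hand2 of the stellate list had 0 of 3760911 in library 2, which allows up to 0.798. The monocyte and neutrophil list held 318 and 244 CPM in Kupffer cells, above the 120 and 159 in endothelial cells. Of its 12 genes 8 were tested against endothelial cells in library 1, with 6 called higher and 0 lower and a median log2 ratio of 1.64, and 7 in library 2, with 2 higher and 0 lower and a median of 0.71. Among its monocyte genes Ccr2, the chemokine receptor of recruited monocytes, had 9.44 and 2.92 CPM, and Ly6c2, another monocyte marker, had 1.42 and 2.39 CPM. S100a8 of the same list was called higher in Kupffer than in endothelial cells in both libraries. Stellate genes outside the rule stood at 195 and 194 CPM, and their fullest window was that of Pdgfrb at 65.5 and 63.5 CPM, which overlaps the window of Csf1r.

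Against endothelial cells of the same library, 500 genes were called higher in Kupffer cells in both libraries and 626 lower in both, of 14526 tested in both. Opposite calls were made for 33 genes, higher in library 1 and lower in library 2, and for 12 the other way. The 500 genes were 29.4% of those higher in library 1 and 56.5% of those higher in library 2. The 10 highest by the smaller ratio of the libraries were Lilra5, Rgs1, Cmklr1, Arg2, Nlrc4, Cybb, Clec4n, P2ry13, Lilr4b and Lyz2. Lilra5, an activating receptor of the leukocyte immunoglobulin-like family, had log2 ratios of 4.00 (2.90 to 5.77) and 2.63 (1.84 to 3.63). Its levels were 52.5 and 29.2 CPM in Kupffer cells against 2.99 and 4.46 in endothelial cells. Cmklr1, the receptor of the attractant chemerin, had 211 and 134 CPM against 17.3 and 23.0, a ratio of 3.58 (3.07 to 4.19) and 2.498 (2.14 to 2.90), and fragments there were found in 264 of 308 and 133 of 179 Kupffer cells.

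The other leading genes had varied roles. Cybb encodes the catalytic subunit of the phagocyte oxidase and stood at 102 and 80.6 CPM against 10.2 and 14.4, a ratio of 3.28 and 2.43. Nlrc4, the inflammasome sensor of bacterial flagellin, had ratios of 3.50 and 2.45. Clec4n, a lectin receptor for fungal sugars, had 2.63 and 2.40, and Lyz2, lysozyme, had 2.26 and 2.31. Rgs1, a brake on chemokine receptor signalling, had 3.62 and 2.499, Arg2, the mitochondrial arginase, 3.18 and 2.46, and P2ry13, a receptor for ADP, 2.74 and 2.34. Lilr4b belongs to a set of near-identical immunoglobulin-like receptor genes, so its 3.79 and 2.33 are uncertain, since the treatment of reads with several matches was not given in the sources used here.

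At the other end the 10 lowest genes were led by endothelial ones. Ephb4, a receptor that marks veins, stood at 5.52 and 6.91 CPM in Kupffer cells against 160 and 109 in endothelial cells, a log2 ratio of -4.83 (-5.44 to -4.31) and -4.00 (-4.66 to -3.45). Eng, a co-receptor for TGF-beta in endothelium, had -3.51 and -3.07, and Cavin2, a coat protein of caveolae, -5.14 and -3.56. Aqp1, a water channel, and Adamts1, a secreted protease, were also among them, at -5.78 and -3.204 and at -4.25 and -2.84.

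The other Kupffer-associated genes differed in how open they were. Vcam1, an adhesion molecule that Kupffer cells carry, had 88.0 and 74.98 CPM in Kupffer cells against 19.1 and 13.7 in endothelial cells, a ratio of 2.18 (1.68 to 2.76) and 2.40 (1.93 to 2.93). Slc16a9, a carnitine transporter, had the largest ratio of the list in library 1 and a smaller one in library 2, at 3.46 (2.77 to 4.35) and 1.07 (0.70 to 1.47). C6, the complement component, had 3.07 and 1.06 in the same way, and with pile-ups masked the values of library 2 were 1.82 for C6 and 1.44 for Slc16a9. In both genes the Kupffer level was lower in library 2 and the endothelial level higher, with C6 at 113 and 64.3 CPM in Kupffer cells and at 13.2 and 29.8 in endothelial cells. Clec1b, a receptor for podoplanin, was shared with endothelial cells, at 47.8 and 30.2 CPM there, and its ratios of 0.87 and 0.99 missed the 2-fold line in both libraries. Cd209f had 13 and 8 fragments in Kupffer cells and Cxcl13 19 and 7, and neither was tested.

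The counts of the pathway lists below are to be read against the shares of all tested genes given above, 11.2% higher and 9.72% lower in library 1 and 5.85% and 8.66% in library 2. Receptors for antibodies, complement and integrin ligands were the pathway list most often higher in Kupffer cells. In library 1, 19 of its 20 genes were called higher and 1 lower, and in library 2 12 were higher and 2 lower, with medians of 2.37 and 1.23. Fcgr3, an activating receptor for IgG, had ratios of 2.61 (1.89 to 3.55) and 2.25 (1.64 to 2.98). Tyrobp, the adaptor that carries the signal of many myeloid receptors, had 2.57 and 1.76, and the kinase gene Syk next in that chain 2.74 and 1.72. C3ar1, the receptor for complement C3a, had 3.05 and 1.46. Fcgr2b, the inhibitory receptor for IgG that liver endothelium uses to clear immune complexes, was the gene lower in both, at -2.14 (-2.48 to -1.80) and -1.43 (-1.84 to -1.04). It stood at 23.0 and 21.0 CPM in Kupffer cells against 101 and 55.2 in endothelial cells. Windows at start sites alone gave 0.21 for Fcgr2b in library 1, so the start site did not share the lower value.

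Among the lineage factors and the CSF1 receptor, 8 of 20 genes were called higher and 1 lower in library 1, and 7 higher and 0 lower in library 2, with medians of 0.76 and 0.69. Spi1, the gene of PU.1, had ratios of 1.87 (1.55 to 2.23) and 1.29 (1.01 to 1.59), and Nr1h3, the gene of LXR alpha, 1.53 and 1.21. Csf1r, the CSF1 receptor, had 2.82 (2.38 to 3.32) and 1.05 (0.77 to 1.35), and Irf5, a driver of inflammatory macrophage genes, 3.12 and 1.18. Spic, which red pulp macrophages of the spleen need and which heme induces, had 2.15 and 1.12. Id1 and Id3 were open in both classes, at -0.23 and -0.21 and at -0.19 and 0.31, none past 2-fold. Bhlhe41 differed between the libraries, at -0.37 (-0.84 to 0.13) in library 1 and 2.29 (1.66 to 3.03) in library 2, and Bhlhe40 was lower in Kupffer cells in library 1 at -1.16.

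For heme and iron handling, 9 of 20 listed genes were called higher in library 1 and 6 in library 2, and 0 were lower in either, with medians of 0.79 and 0.77. Lrp1, the receptor that clears heme bound to hemopexin, held 507 and 337 CPM in Kupffer cells against 75.9 and 95.3 in endothelial cells, a ratio of 2.73 (2.48 to 3.01) and 1.78 (1.60 to 1.98). Slc40a1, the iron exporter ferroportin, had 1.70 (1.32 to 2.12) and 1.63 (1.27 to 2.02), and Steap3, an iron reductase of endosomes, 1.99 and 1.19. Trf, transferrin, had 1.65 and 1.54, and Hfe, a regulator of iron sensing, 1.09 and 1.24. Bach1, the heme-sensing repressor, had -0.09 (-0.35 to 0.18) in library 1 and -0.57 (-0.83 to -0.32) in library 2, where its level of 64.9 CPM lay below the 94.0 of endothelial cells. Tfrc, the receptor for transferrin iron, had 0.26 (-0.22 to 0.80) and 0.27 (-0.16 to 0.72).

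The engulfment list was split. In library 1 7 of 20 genes were higher and 4 lower, where 11.2% and 9.72% of all tested genes were. In library 2 4 were higher and 3 lower, where 5.85% and 8.66% of all were, so the lower count was not far from the background. The medians were 0.61 and 0.28. Itgb5, an integrin chain for apoptotic cells, had ratios of 1.95 and 1.73, and Clec7a, the receptor for fungal beta-glucan, 2.51 and 1.93. Cd36, a scavenger receptor for lipids, had 1.42 and 1.08. Mertk, a kinase receptor that takes up dying cells, was open in both classes, at 406 and 262 CPM in Kupffer cells against 250 and 141, and its ratios of 0.70 and 0.85 stayed under 2-fold. Itgb3 was lower in Kupffer cells at -2.59 and -1.34, and so was Mfge8, a bridging protein, at -2.01 and -1.19. The ratio of Mfge8 in library 2 came to 0.18 over the 54 Kupffer cells with no endothelial or stellate fragment.

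Lysosomal genes were called higher for 9 of 22 members in library 1 and 4 in library 2, with 0 lower and medians of 0.78 and 0.58. Ctsz, a cathepsin, was highest in library 1, at 2.02 and 1.11. Atp6v0d2, a subunit of the vesicular proton pump, was highest in library 2, at 1.95 (1.47 to 2.51) and 2.17 (1.75 to 2.63), and Lamp1 and Lamp2, membrane proteins of every lysosome, stood at -0.24 and 0.53 and at -0.40 and -0.21. In the MHC class II list, which also holds genes of co-stimulation, 11 of 12 tested genes were higher in library 1 and 4 in library 2, with 0 lower and medians of 1.76 and 0.90. Cd86, a ligand that co-stimulates T cells, had 2.92 and 1.46, and Cd74, the invariant chain, 2.997 and 1.82. H2-Aa, a chain of the antigen-presenting molecule, had 2.42 (1.57 to 3.57) in library 1 and -0.32 (-1.07 to 0.44) in library 2.

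For pattern recognition and inflammation, 15 of 25 genes were higher in library 1 and 11 in library 2, with 0 lower and medians of 1.35 and 0.98. Il18, the precursor of an inflammasome cytokine, had ratios of 3.51 (2.64 to 4.72) and 2.23 (1.48 to 3.16). Tlr13, a sensor of bacterial ribosomal RNA, had 2.25 and 1.85, and Nlrp3, the inflammasome sensor, 1.86 and 1.49. Ccl3 and Ccl4 have overlapping windows and share fragments, and stood at 3.61 and 1.56 and at 3.37 and 1.38. Il6 had 3.89 (2.54 to 6.40) in library 1 and 0.44 (-0.16 to 1.08) in library 2. Its level in endothelial cells was 1.79 CPM in library 1 and 12.4 in library 2.

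**Figure D3:**
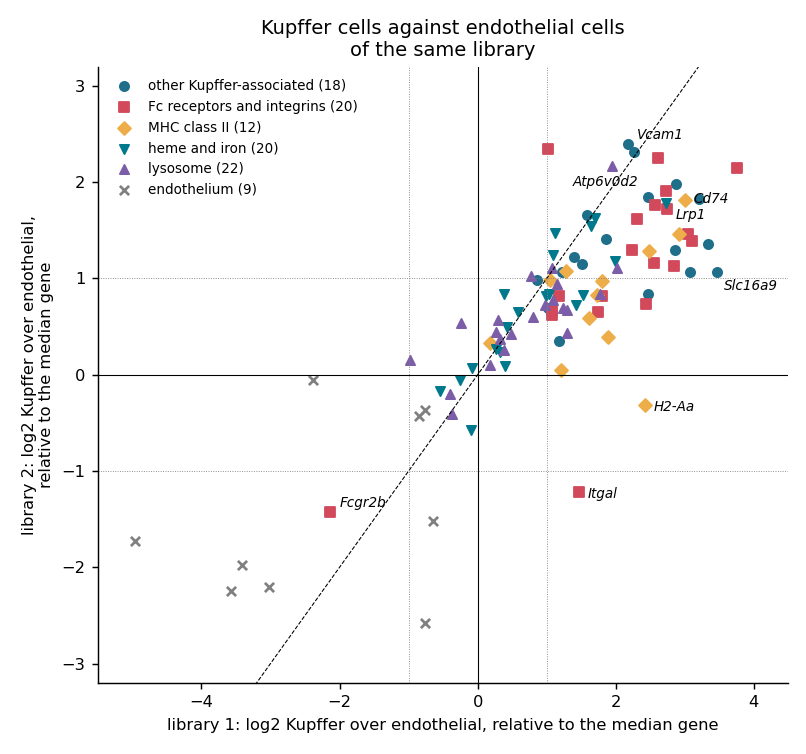
Log2 ratio of Kupffer over endothelial cells relative to the median gene in library 1 (horizontal) and library 2 (vertical), with 1 point per gene tested in both and colours for 6 gene lists. Dotted lines mark 2-fold and the dashed line equal ratios. The Kupffer-associated and Fc receptor genes lie mostly to the upper right, with medians of 2.22 and 2.37 in library 1 against 1.26 and 1.23 in library 2, and the 9 endothelial genes lie below 0 in both.

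Most open sites that set Kupffer cells apart from endothelial cells lay away from gene ends and starts. The genome was divided into tiles of 500 bp and transposase insertions, which are the 2 ends of each fragment, were counted in them and are given per 1000000 insertions of the class (insertion CPM). Tiles with at least 20 insertions in the Kupffer cells of each library numbered 45983, of which 27 touched the windows of the rule and were set aside. Of the other 45956 tiles, 7291 (15.9%) were at least 4-fold fuller in Kupffer than in endothelial cells in both libraries, and 6845 stayed so with pile-ups masked. Only 7.91% of these Kupffer-biased tiles lay within 1 kb of a gene end or start site, against 40.4% of all open tiles. A share of 49.0% lay farther inside a gene and 43.1% between genes, against 31.6% and 28.0% of all open tiles. The Kupffer-biased tiles were chosen by level in Kupffer cells and by ratio, so their number and their places carry no test. A tile near the minimum of 20 insertions could pass on few endothelial insertions, and the part of tile level in these places was not tested. A site that few endothelial cells opened is not told apart from one none opened. Tiles were not counted in stellate cells or in cells of no class, so sites shared with those are not told apart either.

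**Figure D4:**
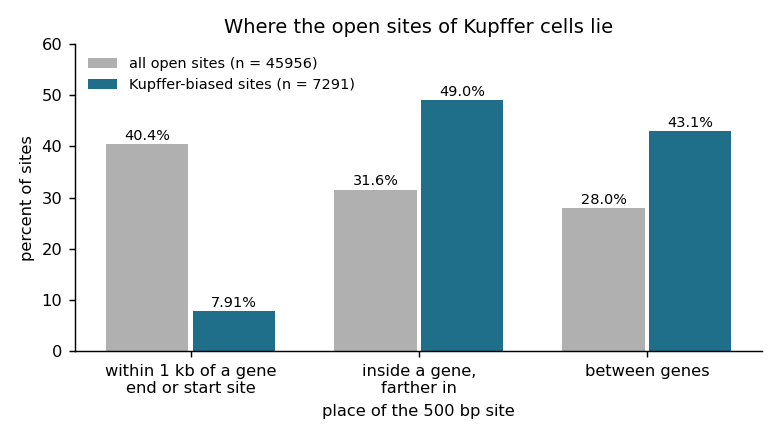
Share of 500 bp sites by place, for all sites open in the Kupffer cells of both libraries and for the Kupffer-biased ones. Of the biased sites 7.91% lie within 1 kb of a gene end or start site, against 40.4% of all open sites.

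The biased site fullest in library 1 was inside Lrp1, 16397 bp from the nearer end, at chr10:127604501-127605000 of the files' build GRCm38.p5. It had 53.0 insertion CPM in Kupffer cells of library 1 and 39.4 in library 2, from 182 and 88 cells, against 5.08 and 4.46 in endothelial cells. Another site inside Lrp1, at chr10:127591001-127591500, had 36.6 and 28.4. At C1qb, a second chain of complement C1q, the site chr4:136886001-136886500, 51 bp from a gene end or start site, had 47.6 and 35.5 against 3.29 and 7.37. A site 128029 bp inside Cadm1, an adhesion molecule, at chr9:47734001-47734500, had 42.5 and 36.3. A site inside Cd38, an enzyme that consumes NAD, at chr5:43882001-43882500, had 39.9 and 29.9. At C6, the site chr15:4734001-4734500 inside the gene had 35.97 and 13.6, a larger gap between the libraries than at the sites named before it.

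The 6845 masked sites had 3489 genes as their nearest, of which 764 were nearest to 3 or more. Gm826 was nearest to 26 sites, Lrp1 to 18, Frmd4b to 17 and Notch2, the receptor that endothelial Notch ligands bind, to 14. The lineage factor genes Zeb2, with 13 sites, Runx1, with 12, and Cebpb, with 11, were among the leading ones. Abca1, the cholesterol exporter, had 12, and Rgs1 and Cmklr1, named above for their whole windows, had 12 and 9. The nearest gene is a matter of position and says nothing of which gene a site acts on.

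Within the windows of the rule, markers differed in where their signal lay. At Cd5l the tile at the start site, chr3:87357501-87358000, held 24.3 insertion CPM in library 1 and 19.5 in library 2, or 25.1% and 31.5% of the window. C1qa had its fullest tile, chr4:136898501-136899000, 93 bp from a gene end, with 26.4 and 14.2. The fullest tile of Clec4f, chr6:83656001-83656500, lay at the start site, with 15.8 and 6.78. Vsig4 had its fullest tile 36687 bp into the gene, at chrX:96256501-96257000, with 9.08 and 5.18. Its start site lay near a tile boundary, and the tiles on either side held 5.79 and 5.34 in library 1, together more than the tile inside the gene, and 2.13 and 1.99 in library 2. Cd163 was fullest 4600 bp into the gene, at chr6:124309001-124309500, with 14.2 and 9.31, against 5.07 and 2.53 at its start.

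Promoter sequences were taken from RefSeq for build GRCm38.p6, which shares primary chromosome coordinates with the files' build, and 6 of the 8 markers and 11615 of the genes tested in both libraries had one. The letters GAGGAAGT, a strong form of the site that PU.1 binds, were searched on both strands in the 300 bases from 250 before to 50 after the start. They were found in 37 of 390 promoters (9.49%, 6.77 to 12.8) of genes higher in Kupffer cells in both libraries, in 15 of 449 (3.34%, 1.88 to 5.45) of those lower in both, and in 354 of all 11615 (3.05%). Among all 32851 promoters listed, 3.202% held them. The 37 include the related genes Cd300ld, Cd300ld3, Cd300ld4 and Cd300lf, each counted singly, and the intervals treat promoters as independent. The form CCGGAAGT, bound by widely expressed ETS factors, shares GGAAGT with the first but cannot match at the same place. It was in 2.31% (1.06 to 4.34) of the higher promoters and 1.11% (0.363 to 2.58) of the lower, against 7.55% of all tested. Its lower share was thus common to both called groups. Among all promoters listed 3.89% held CCGGAAGT. The SP and KLF letters GGGCGG were in 41.8% of the higher promoters and 58.4% of the lower. Both shares lay below the 62.7% of all tested and above the 35.7% of all promoters listed. Base composition differed too, since GC made up 54.4% of the higher promoters, 61.4% of the lower and 60.8% of all tested. The part of base composition in these shares was not tested.

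The GATA, interferon response, C/EBP and AP-1 letters were more frequent in the higher promoters than in all tested, with smaller gaps to all promoters listed. The GATA letters AGATAA stood at 12.1% (8.99 to 15.7) of the higher promoters against 6.27% of all tested, 8.02% of the lower and 11.2% of all promoters listed. The interferon response letters GAAANNGAA stood at 11.03% against 7.18% of all tested and 8.56% of all listed. The C/EBP letters TTGCNNAA stood at 12.3% against 8.07% and 10.8%, and the AP-1 letters TGANTCA at 7.95% against 4.86% and 7.81%. SOX letters, AACAAT, were also above all tested, at 8.72% against 5.49%, but below the 10.7% of all listed. The MiT/TFE letters CACGTG went the other way, at 6.15% against 9.80% and 7.15%. RBPJ letters, GTGGGAA, stood at 5.38% against 6.12% and 6.38%. The letters TGCTGA, part of the site that MAF factors bind, were in 19.7% (15.9 to 24.0) of the higher promoters, 15.1% of all tested and 19.5% of the whole table. The antioxidant response letters TGACNNNGC stood at 14.6% in both the higher promoters and all tested. A match to letters is a description and not a bound site.

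Among the 37 promoters with GAGGAAGT were those of the listed genes Ctsc, Fcgr4, Pirb, Ptgs1, S100a8 and Tlr1. Ctsc, Fcgr4 and Ptgs1 are shown, chosen after their values were seen, because they carry the letters that were more frequent in the higher group, belong to the Kupffer and Fc receptor lists and were open at the start. Pirb, also of the Fc receptor list, had only 5 and 2 insertions in its promoter in Kupffer cells. That of Tlr1 held 2.85 and 3.46 insertion CPM against 5.38 and 2.40 in endothelial cells, so it was fuller in endothelial cells of library 1. Each run gives the 250 bases before the start site, 5′ to 3′ along the gene, with the PU.1 letters or their reverse complement ACTTCCTC in capitals.
Ctsc: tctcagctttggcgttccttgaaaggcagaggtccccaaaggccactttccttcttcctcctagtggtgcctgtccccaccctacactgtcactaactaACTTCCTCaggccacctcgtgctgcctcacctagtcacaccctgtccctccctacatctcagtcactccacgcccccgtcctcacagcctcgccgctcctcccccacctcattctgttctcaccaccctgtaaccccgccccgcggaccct
Fcgr4: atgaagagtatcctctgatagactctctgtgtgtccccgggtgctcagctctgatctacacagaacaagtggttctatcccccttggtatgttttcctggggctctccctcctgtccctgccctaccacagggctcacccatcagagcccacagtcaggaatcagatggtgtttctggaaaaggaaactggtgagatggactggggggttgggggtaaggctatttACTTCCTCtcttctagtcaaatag
Ptgs1: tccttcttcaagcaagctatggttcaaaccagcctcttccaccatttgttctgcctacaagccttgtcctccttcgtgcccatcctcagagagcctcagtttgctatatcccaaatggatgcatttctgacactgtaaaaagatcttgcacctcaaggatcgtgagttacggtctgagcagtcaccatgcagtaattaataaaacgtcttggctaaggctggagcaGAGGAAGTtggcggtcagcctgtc

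Ctsc, a cathepsin that activates other proteases, was the most open of these. Its promoter, chr7:88277835-88278084 on the plus strand, has the reverse letters 151 bases before the start. Counted over the 300 bases, it held 27.2 insertion CPM in library 1 and 35.8 in library 2 against 4.48 and 8.40 in endothelial cells. Fcgr4, an activating receptor for IgG, at chr1:171018676-171018925 on the plus strand, has them 24 bases before the start, and held 4.27 and 2.13 against 0.299 and 0, where a count of 0 allows up to 0.514. Ptgs1, the constitutive cyclooxygenase, at chr2:36230176-36230425 on the plus strand, has the forward letters 24 bases before the start, and held 6.14 and 3.72 against 4.78 and 1.89. At Ptgs1 the start was thus nearly as open in endothelial cells of library 1, while the log2 ratio of the whole window was 1.39 and 1.22.

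Of the 6 marker promoters, those of Clec4f, Timd4 and Cd5l held TGCTGA and are shown because these start sites were open in Kupffer cells and had few insertions in endothelial cells. Both classes were chosen by marker counts that include these genes, so this contrast is a description. The MAF letters or their reverse complement TCAGCA are in capitals.
Clec4f: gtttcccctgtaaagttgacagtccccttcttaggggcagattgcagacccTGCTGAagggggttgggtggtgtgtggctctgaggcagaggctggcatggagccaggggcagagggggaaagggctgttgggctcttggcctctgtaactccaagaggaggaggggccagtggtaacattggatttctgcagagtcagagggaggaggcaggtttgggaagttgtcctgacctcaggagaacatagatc
Timd4: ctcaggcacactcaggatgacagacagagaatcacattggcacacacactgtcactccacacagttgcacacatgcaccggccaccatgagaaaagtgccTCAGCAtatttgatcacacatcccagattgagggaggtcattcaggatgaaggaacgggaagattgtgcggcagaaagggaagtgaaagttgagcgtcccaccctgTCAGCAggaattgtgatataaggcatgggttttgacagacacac
Cd5l: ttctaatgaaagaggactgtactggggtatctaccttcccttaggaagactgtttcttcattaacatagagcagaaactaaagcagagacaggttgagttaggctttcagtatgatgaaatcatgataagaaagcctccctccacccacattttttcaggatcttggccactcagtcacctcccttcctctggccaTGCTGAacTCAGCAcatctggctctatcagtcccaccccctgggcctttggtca

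The promoter of Clec4f, chr6:83656117-83656366 on the minus strand, has the letters 199 bases before the start and held 11.5 and 5.18 insertion CPM against 0.299 and 0, with the same limit of 0.514. Timd4, at chr11:46810549-46810798 on the plus strand, has the reverse letters 150 and 44 bases before the start and held 10.6 and 7.44 against 0.897 and 0.514. Cd5l, at chr3:87357631-87357880 on the plus strand, has a forward and a reverse match 54 and 46 bases before the start and held 18.6 and 16.0 against 2.39 and 2.40. The promoters of Vsig4, Cd163 and Marco had no match in the 250 bases, and Cd163 and Marco had low levels there, at 3.83 and 1.99 and at 1.07 and 1.33.

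Between the libraries, the pathway genes of Kupffer cells past 2-fold were few. They included Hmox1, higher in library 2, and 3 genes of the MHC class II list, lower in library 2. For library 2 over library 1 the log2 ratio of the median gene was -0.21, or -0.13 with pile-ups masked, and gene ratios are relative to it. Of 15705 tested genes 1306 (8.32%) were called higher in library 2 and 319 (2.03%) lower. With pile-ups masked the counts were 808 and 300, and 756 and 255 genes were called in the same direction both ways. Windows of 1 kb on each side of start sites turned the balance, with 54 genes higher and 437 lower of 10706 tested. Most of the higher calls were thus not made when fragments at start sites alone were counted, where fewer genes could be tested. Fragment lengths differed too: those longer than a pair of nucleosomes made up 8.77% in library 2 against 5.36% in library 1, and those between this and a single nucleosome 29.0% against 35.6%. The part of fragment length in these counts was not tested.

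The 10 lowest genes included immune ones. They were Ifi209, Gcm1, Tmem176a, Tslp, Calml4, Gbp4, Gpx7, Slc22a17, Cers4 and Slc9a3r2. Tmem176a, a membrane protein of immature dendritic cells and macrophages, fell from 23.0 to 4.25 CPM, a ratio of -2.18 (-3.07 to -1.46), and fragments were found in 100 Kupffer cells of library 1 and 13 of library 2. Its window overlaps that of its neighbour Tmem176b. Gbp4, an interferon-induced GTPase, went from 21.4 to 4.25 CPM, at -2.08 (-2.97 to -1.36), and Ifi209, another interferon-induced gene, from 16.9 to 2.92, at -2.26 (-3.37 to -1.41). Cers4, a ceramide synthase, had 49.7 and 12.0 CPM, at -1.83 (-2.33 to -1.38), from 167 and 30 cells. At start sites alone these 4 genes had ratios of -2.25, -1.94, -2.59 and -3.43. In endothelial cells they stood, in the same order, at 9.56 and 18.5, 22.1 and 11.7, 6.58 and 3.77, and 52.0 and 17.1 CPM. All but Tmem176a were thus lower in library 2 there too, and the part of this in the Kupffer values was not tested.

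The 10 highest genes were Gm12695, Prex2, Ndst4, Rtl4, Scn11a, Ugt8a, Gprin3, Ankfn1, Erc2 and D430019H16Rik. Prex2, an exchange factor for Rac, had 12.5 CPM in library 1 and 126 in library 2, a ratio of 3.54 (3.18 to 3.93), or 2.54 with pile-ups masked. In endothelial cells it stood at 157 and 158 CPM, and the part of endothelial fragments in the Kupffer value was not tested. Erc2, a protein of synapses, had 52.2 and 388 CPM, or a ratio of 3.11 that came to 1.497 when masked, and Ndst4, an enzyme of heparan sulfate, had 3.35 and 1.69. Ankfn1 had 3.12 over its window and -0.68 at its start site. Single cells carried much of these levels in library 2, where 1 cell held 682 of the 1460 fragments at Erc2, 345 of 507 at Ndst4, 227 of 611 at Ankfn1 and 129 of 472 at Prex2. The same was seen at Gm12695, with 64 of 98 in 1 cell, Rtl4 with 167 of 261, Gprin3 with 109 of 184, Ugt8a with 80 of 111, D430019H16Rik with 74 of 105 and Scn11a with 36 of 145.

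Among the listed genes, few passed 2-fold, where 8.32% of all tested genes were higher and 2.03% lower. In the heme and iron list 1 of 20 was higher and 0 lower, and the median was 0.03. The higher gene was Hmox1, heme oxygenase 1, with 61.4 CPM in library 1 and 119 in library 2, a ratio of 1.17 (0.97 to 1.38), or 1.25 masked. At the start tile it had 19.8 and 17.7 insertion CPM. From 5 kb into the gene to beyond its far end tile after tile was higher in library 2. An example was 5.34 and 14.6 at chr8:75101001-75101500. Endothelial cells were also higher in library 2 over most of this stretch, at lower levels, with 0.299 and 3.26 at chr8:75101501-75102000. At chr8:75101001-75101500 endothelial cells were instead lower in library 2. The part of this endothelial shift in the Kupffer values was not tested. Fth1, the ferritin heavy chain, had 0.71 (0.50 to 0.93), Slc48a1, a heme transporter, 0.60 (0.32 to 0.88), and Blvrb, a biliverdin reductase, 0.39 (0.20 to 0.57), all under 2-fold. Slc40a1 had -0.27 (-0.47 to -0.08) and Lrp1 -0.37 (-0.47 to -0.28).

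In the MHC class II list 3 of 12 tested genes were lower and 0 higher, with a median of -0.67. H2-Aa went from 33.5 to 8.77 CPM, a ratio of -1.70 (-2.30 to -1.18), and its start tile chr17:34287501-34288000 from 22.3 to 4.12 insertion CPM. In endothelial cells that tile stood at 3.29 and 3.43. H2-Ab1 had -1.04 (-1.37 to -0.72) and H2-DMb1 -1.08 (-1.62 to -0.59). The value of H2-Ab1 came to 0.44 over the Kupffer cells with no endothelial or stellate fragment, which number 89 and 54. Marco, a marker of the rule, had 1.85 over its window and 0.79 at its start site alone, each relative to the median gene of its kind of window. Its start tile chr1:120504501-120505000 had 10.95 and 13.3 insertion CPM, which are not relative to the median gene. That tile held 32.3% of the window's insertions in library 1 and 12.6% in library 2. Beyond the far end of Marco the tile chr1:120473001-120473500 had 0.178 and 4.92.

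**Figure D5:**
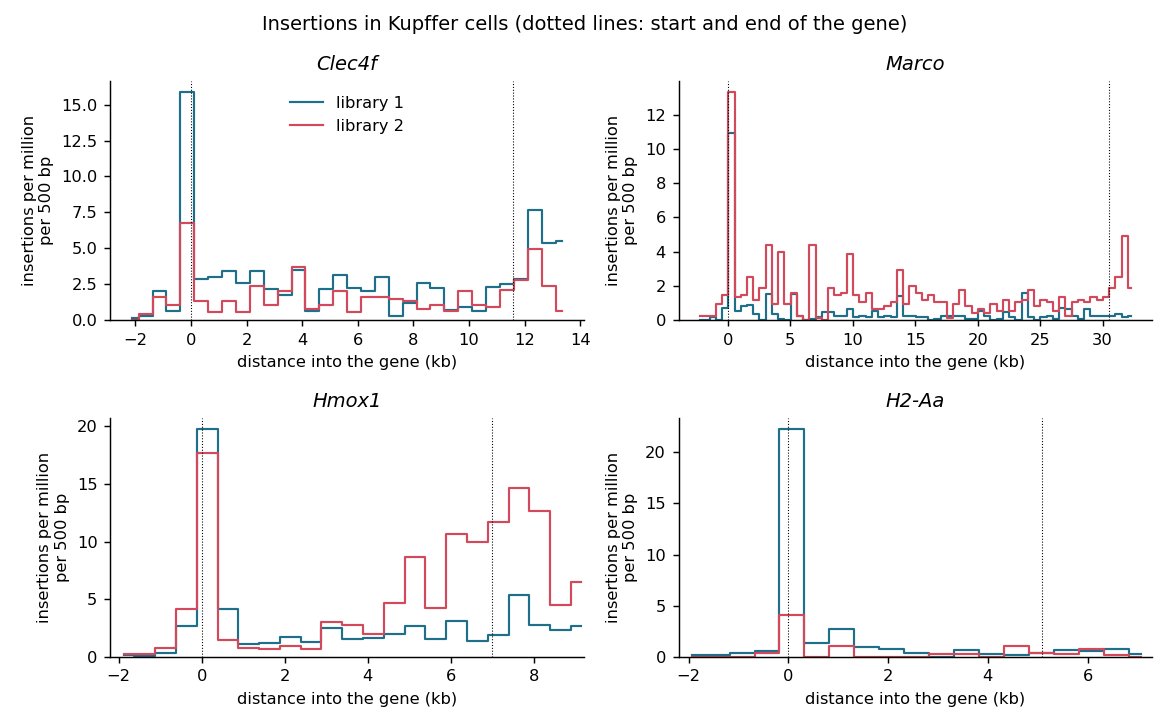
Insertion CPM in tiles of 500 bp across 4 genes in Kupffer cells of library 1 and library 2, by distance in kb into the gene from its start (for Hmox1 from the fuller end), with dotted lines at start and end. Library 2 is higher over the body of Marco and the far part of Hmox1, and lower at the starts of Clec4f and H2-Aa. At the starts of Marco and Hmox1 the libraries lie closer (10.95 and 13.3, 19.8 and 17.7). These levels are not relative to the median gene.

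In the lists that follow, few or no genes passed 2-fold. Of the other Kupffer-associated genes 0 of 18 were higher and 1 was lower, with a median of -0.37, and the intervals of 12 lay below the median gene and that of 1 above it. The lower gene was Folr2, a folate receptor of resident macrophages, at -1.06 (-1.43 to -0.71), with 53.6 and 22.1 CPM. Cd68, a lysosomal membrane protein, was the one with an interval above the median gene, at 0.34 (0.15 to 0.53). The Fc receptor list had 0 higher, 1 lower and 13 of 20 intervals below the median gene, with a median of -0.33, and its lower gene was C5ar1, the receptor for complement C5a, at -1.03 (-1.32 to -0.75). In the pattern recognition list 1 of 25 was lower, Il18 at -1.12 (-1.46 to -0.79), and 0 were higher, with a median of -0.42. The lineage factor list had 0 calls, a median of -0.08 and 8 intervals below the median gene against 3 above, from Bhlhe41 at 0.92 (0.57 to 1.27) and Bhlhe40 at 0.72 (0.50 to 0.95) to Irf5 at -0.70 (-0.92 to -0.49). The lysosome list also had 0 calls, with a median of -0.04 and Ctsd, a cathepsin, at 0.54 and Mitf, a regulator of lysosomal genes, at -0.60. In the engulfment list 1 of 20 was higher, Itgb3 at 1.37 (0.98 to 1.76), or 0.62 with pile-ups masked.

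Some markers of other cells differed between the libraries as well, and their part in the results above was not tested. Of 4 tested hepatocyte genes 2 were higher in library 2 and 0 lower. Apob, the main protein of lipoproteins, was at 3.16 with all fragments and at 0.63 with pile-ups masked. In the T and NK list 2 of 5 tested genes were higher and 1 lower, with Cd2, an adhesion receptor, at 2.98 and Cd3d, a chain of the T cell receptor complex, lower at 5.32 CPM against 17.8. Ebf1, a factor of early B cells, was the 1 called gene of 7 tested in the B cell list, at 1.202. The endothelial list had 1 higher of 8 tested, Emcn at 1.34, with 6.05 and 13.3 CPM. These 2 counts lie near the 8.32% of all genes called higher. In the cholangiocyte list 2 of 3 tested genes were higher, Cftr, a chloride channel, at 2.58 and Krt7, a keratin, at 1.89, or 1.92 and 1.12 with pile-ups masked. The monocyte and neutrophil list had 0 higher and 1 lower of 9 tested, and the erythroid, dendritic cell and stellate lists had 0 calls among 7, 8 and 6 tested genes.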

How the data were processed

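The authors deposited 1 table of fragments for both libraries, as raw counts of the read pairs behind each unique fragment of a barcode, and a table of per-barcode totals with their cell calls. Per the submitters' processing notes, build GRCm38.p5 was used with Signac 0.2.4, Seurat, R 3.6.1, Cell Ranger and Cell Ranger ATAC 1.2.0, and their parameters were not given in the sources used here. Here each unique fragment was counted once in a window of the gene body and 2 kb to either side, for 21887 genes of a RefSeq table of GRCm38.p6. All 272 listed genes matched. Levels are CPM of the class, with Poisson intervals. Ratios on the log2 scale, with 0.5 added to both counts, carry exact conditional binomial intervals and are relative to the median gene, over genes with at least 50 fragments and outside the windows of the rule. Sites were tiles of 500 bp counted by insertion. No doublet caller was run. Depth per Kupffer cell, a median of 16845 and 16293 fragments, leaves most single genes at a few fragments per cell or fewer, so genes were read from sums over cells.

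The members and gene lists were chosen with earlier results of these data known, and the pile-up definition with them. Named genes were list members, taken by largest or smallest ratio or by role, and the 10 highest and 10 lowest genes with at least 100 fragments by the less extreme ratio of the libraries, or for library 2 over library 1 past 2-fold with and without pile-ups, with 1 gene per group of overlapping windows. Samples were not grouped by genotype, since no source ties a barcode ending to one. Alternatives changed the rule, the cells, the windows, the scaling, the depth and the minimum, and 2 of them, endothelial cells with at least 8 marker fragments and Kupffer cells without those over 20% pile-ups, were chosen after seeing the data. Counting was tested on simulated data. Values of some single genes are not reported here. Python 3.11.15, numpy 2.4.6, scipy 1.17.1, pandas 2.3.3, numba 0.67.0 and matplotlib 3.10.9 were used.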

Additional observations from a re-analysis of the deposited data

Results flagged for a closer look

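Itgal, the alpha chain of the leukocyte integrin LFA-1, was called higher in Kupffer than in endothelial cells of library 1 and lower in library 2. The log2 ratios were 1.46 (0.86 to 2.198) and -1.22 (-1.66 to -0.80), so the value of library 2 minus that of library 1 was -2.69, and this difference was not tested. Kupffer cells had 37.0 and 19.1 CPM, and endothelial cells 13.2 and 43.6 CPM. With pile-ups masked the ratio of library 2 was 0.62, and over cells with at least 50% of their fragments in peaks it was 0.46. In the endothelial cells, Prf1, the gene of perforin, had 2 fragments in library 1 and 50 in library 2, and Cd247, a chain of the T cell receptor complex, had 38 and 196. These are raw counts, and the endothelial cells held 1672877 fragments in library 1 and 2915821 in library 2. The T and NK cell list summed to 152 and 194 CPM there, or to 154 and 163 with pile-ups masked, and its part in the result was not tested.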

How the results depend on the processing

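No paired analysis was possible because each group holds 1 library. The number of Kupffer cells in the 2 libraries was 276 and 134 with at least 5 marker fragments and 266 and 129 at 4 times the larger rival number, and library 2 kept 156 without Adgre1 and 150 without Marco. Genes higher in Kupffer than endothelial cells of library 1, 1700 in the text, numbered 1129 over Kupffer cells with no endothelial or stellate fragment and 894 at start sites. The lower ones, 1471 in the text, numbered 454 at start sites, 972 in thinned cells and 2627 with no minimum. In library 2 the higher ones, 885 in the text, numbered 362, 553 and 1687 under these last settings, and the lower ones, 1309 in the text, 356, 753 and 2529. For library 2 over library 1 the higher genes, 1306 in the text, numbered 684 over cells with no rival fragment, 741 over cells that had 50% or more of their fragments in peaks, 808 masked, 54 at start sites, 619 thinned and 2867 with no minimum. The lower ones, 319 in the text, numbered 501 under the stricter rule of both limits and 718 with no minimum. The cause was not tested.

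Single genes changed direction as follows. In library 1 at start sites the log2 ratio to endothelial cells was -0.14 for Sdc3, 0.21 for Fcgr2b and -0.072 for Psap. In library 2 Mfge8 had 0.18 over cells with no rival fragment, Hpgd -0.082 at start sites, and Itgal 0.46 over cells that had 50% or more of their fragments in peaks and 0.62 masked. Between the libraries H2-Ab1 had 0.44 over cells with no rival fragment. With no minimum the cholangiocyte median was 0.33 in library 1 and -0.35 between the libraries. Of 592 recomputed list medians 545 moved by no more than the median distance between their genes' values and the ends of those genes' intervals, and 45 moved by more without such a change of direction. With the 2 alternatives chosen after seeing the data, the counts higher and lower were 1766 and 1500 in library 1 and 969 and 1343 in library 2 for the stricter endothelial cells, and 1119 and 328 between the libraries without Kupffer cells over 20% pile-ups. With 1 animal per library, depth limits only the intervals and no value measures the spread between mice.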
